A study of Mus musculus with 8 samples.

Results

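The genes described here are 6 genes that neutrophils are known to express, *Ngp*, *Ltf*, *Stfa2l1*, *Retnlg*, *Ifitm6* and *Wfdc17*, in RNA of primary intestinal epithelial cells (IECs) from the mouse colon. They were picked by name from a table of 128 genes that the authors had selected for a difference between genotypes on day 7, and all 6 of the 6 names were found in it. The same contrast therefore chose them, and the genotype differences below are given as a description. Calls of a fit over the whole table are printed beside the share for all listed genes, and since the selection used the same contrast they are no independent test of these genes. None of the 6 was found among the 309 genes of the table of day 0, so their levels without DSS were not analysed here.

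Neutrophils form in the bone marrow and fill their granules in a fixed order as they mature, so the granule genes that a cell transcribes mark its stage. *Ngp* (neutrophilic granule protein) and *Ltf* (lactotransferrin, an iron-binding antimicrobial protein) belong to the secondary granules, which are filled at an intermediate stage. *Retnlg* (a resistin-like secreted protein) and *Stfa2l1* (a stefin A, from a family of cysteine protease inhibitors) are known from later, circulating neutrophils, and *Ifitm6* (an interferon-induced transmembrane family member) and *Wfdc17* (a small secreted protein with a WAP four-disulfide core) are expressed by neutrophils and other myeloid cells.

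Both genotypes carried *Efhd2* with exon 2 flanked by loxP sites (Efhd2f/f). In Efhd2f/f Vil1cre/+ mice, Cre driven by the villin promoter, which is active in the intestinal epithelium, removes that exon there. The mice were 8 to 10 weeks old by the study's methods, and the day 7 groups had been given dextran sodium sulfate (DSS), which damages the colonic epithelium, at 2.5% or 3% in drinking water for 6 days, with the dose of the sequenced mice not given in the sources used here. There were 2 libraries in each of the 4 groups of genotype and day. On day 7 they were numbered 65 and 71 (Efhd2f/f Vil1cre/+) and 67 and 68 (Efhd2f/f). Nothing states that the 2 libraries of a group came from separate mice, so the spread between them may be technical.

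The epithelial fraction was released from the colon with EDTA and passed through a strainer, with no sort named for it, and the label of the samples is intestinal epithelial cell. None of 12 epithelial marker genes (such as *Epcam* and *Krt8*) is in the day 7 table, which holds only selected genes. The label could therefore not be checked there. *Efhd2* is in the day 0 table but not in the day 7 table, so it did not pass the authors' thresholds on day 7. Its day 7 level is not given, and the deletion could not be checked on that day. More cells of a type and more RNA per cell cannot be told apart in such bulk libraries. The depth of the libraries is unknown.

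The 6 genes lie on 4 chromosomes of GRCm38, and the table's coordinates are those of GENCODE mouse release 21 for all 6. *Ngp* (ENSMUSG00000032484, chr9:110419747-110423012, plus strand, 4 exons) and *Ltf* (ENSMUSG00000032496, chr9:111019271-111042767, plus strand, 17 exons in its longest coding transcript) are 596 kb apart. *Stfa2l1* (ENSMUSG00000059657, chr16:36156811-36161953, plus strand, 3 exons) sits in the stefin A cluster, and *Retnlg* (ENSMUSG00000022651, chr16:48872621-48874496, plus strand, 4 exons) lies elsewhere on that chromosome. *Ifitm6* (ENSMUSG00000059108, chr7:141015699-141017924, minus strand, 3 exons) and *Wfdc17* (ENSMUSG00000069792, chr11:83703991-83706268, plus strand, 3 exons) lie on other chromosomes. No other annotated gene overlaps any of the 6. Of the 370 stretches of 50 bases in the *Stfa2l1* transcript, 24.6% also occur in a transcript of another gene, mostly *Stfa2*, so the *Stfa2l1* count is uncertain to the extent that shared reads were divided. The other 5 genes shared no such stretch.

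The promoters of *Ngp*, *Ltf* and *Retnlg* are shown because they are those among the 6 that hold the core of the motif of C/EBP factors (TTGCNNAA, searched on both strands), factors known to act on granule genes. All 6 genes matched an entry of the RefSeq promoter table (GRCm38.p6), which runs from 250 bases before to 50 after the RefSeq start. The 250 bases before the start are printed 5′ to 3′ on the strand of the gene, and capitals mark matches to the C/EBP core and to the PU.1 core (GAGGAA). They span chr9:110419558-110419807 for *Ngp*, chr9:111019042-111019291 for *Ltf* and chr16:48872358-48872607 for *Retnlg*, all on the plus strand. The gene start in the table lies 61 bases before the RefSeq start for *Ngp*, 21 before it for *Ltf* and 13 after it for *Retnlg*. For the promoters not printed it lies 1032 before it for *Ifitm6*, 65 before it for *Wfdc17* and at it for *Stfa2l1*. The bases searched for *Ifitm6* thus lie inside its annotated gene.
Ngp: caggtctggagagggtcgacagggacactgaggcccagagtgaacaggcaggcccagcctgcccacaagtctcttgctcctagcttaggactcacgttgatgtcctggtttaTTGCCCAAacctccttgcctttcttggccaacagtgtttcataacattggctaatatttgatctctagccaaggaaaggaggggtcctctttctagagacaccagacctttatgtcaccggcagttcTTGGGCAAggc
Ltf: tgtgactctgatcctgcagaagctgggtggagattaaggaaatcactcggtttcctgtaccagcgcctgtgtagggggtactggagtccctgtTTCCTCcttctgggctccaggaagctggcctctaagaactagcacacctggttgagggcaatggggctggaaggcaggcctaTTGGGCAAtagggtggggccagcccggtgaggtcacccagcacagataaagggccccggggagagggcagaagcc
Retnlg: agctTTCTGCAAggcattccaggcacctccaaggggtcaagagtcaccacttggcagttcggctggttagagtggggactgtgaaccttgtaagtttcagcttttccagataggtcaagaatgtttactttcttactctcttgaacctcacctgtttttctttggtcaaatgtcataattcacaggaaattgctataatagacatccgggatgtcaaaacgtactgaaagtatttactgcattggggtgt

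Of the 32851 promoters in the table, 10.8% hold the C/EBP core, beside 3 of these 6 and 25.3% of the 91 genes of the day 7 table that have an entry. The matches begin 138 and 11 bases before the start of *Ngp*, 75 before that of *Ltf* and 246 before that of *Retnlg*. The form TTGGGCAA occurs in both *Ngp* and *Ltf*, a form singled out after the matches were seen. On either strand it occurs in 0.828% of all promoters and in 3.30% of the 91 genes. The PU.1 core occurs in *Ltf*, *Stfa2l1* and *Wfdc17*, in 28.3% of all promoters and in 35.2% of the 91 genes. The TATA box (TATAAA) occurs in *Ifitm6* and *Wfdc17*, in 13.6% of all promoters and in 34.1% of the 91 genes. Its match in *Wfdc17* begins 3 bases before the start and runs across it. The AP-1 motif (TGANTCA, 7.81% of promoters, 8.79% of the 91 genes) and the GATA core (GATAAG, 7.44% and 9.89%) occur in 0 of the 6. None of the matches in the 6 promoters overlapped a match of another motif.

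The values are normalized counts, which the authors scaled between the 4 libraries of the day. *Ngp* was at 90.6 in library 65 and 7712 in library 71 of Efhd2f/f Vil1cre/+ IECs, and at 12.1 and 12.2 in libraries 67 and 68 of Efhd2f/f IECs. *Ltf* was at 102 and 1651 against 4.17 and 14.3. In both secondary granule genes library 71 stood far above the other 3.

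*Ifitm6* was at 482 and 3107 normalized counts in libraries 65 and 71 against 33.6 and 59.7 in the controls. *Stfa2l1* was at 102 and 241 against 14.6 and 27.6. *Retnlg* was at 1586 and 4714 against 240 and 813. Library 71 was again the highest for these genes, but by less than for *Ngp* and *Ltf*.

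*Wfdc17* was at 660 and 771 normalized counts in libraries 65 and 71 and at 104 and 178 in libraries 67 and 68. It was the gene of the 6 for which the 2 Efhd2f/f Vil1cre/+ libraries were closest. Both Efhd2f/f Vil1cre/+ libraries were above both Efhd2f/f libraries for 6 of the 6 genes. Among all listed genes the share was 90.6%, and since the genes had been selected on this difference nothing is read from the count.

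**Figure D1:**
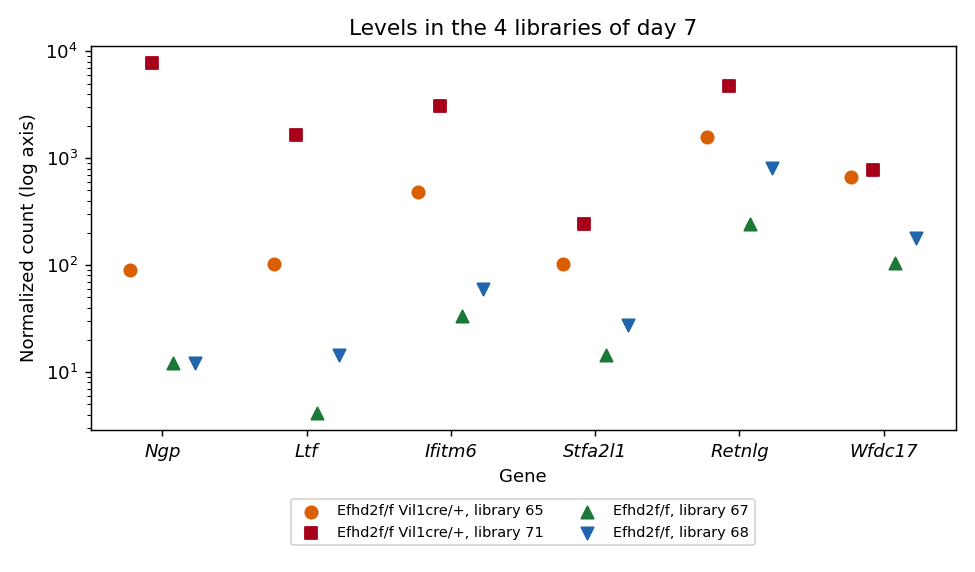
Normalized counts (log axis) of the 6 genes in each day 7 library, 1 point per library. *Ngp* spans from 12.1 to 7712, with library 71 far above the rest, while *Wfdc17* shows 2 pairs, 660 and 771 over 104 and 178.

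The ratio of the mean normalized count in Efhd2f/f Vil1cre/+ IECs to that in Efhd2f/f IECs ranged widely among the 6 genes. It was 321 for *Ngp*, 95 for *Ltf*, 38.5 for *Ifitm6*, 8.13 for *Stfa2l1*, 5.98 for *Retnlg* and 5.06 for *Wfdc17*. With library 65 alone set against the control mean, the same ratios were 7.46, 11.0, 10.3, 4.83, 3.01 and 4.67. The order thus changed, with *Ltf* and *Ifitm6* ahead of *Ngp*, and *Ngp* moved by far more than 1.5 times when library 71 was left out.

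On the log2(normalized count + 1) scale, which understates the change of low genes, the difference was 6.0 for *Ngp* (standard error 1.55), 5.53 for *Ltf* (1.18), 4.74 for *Ifitm6* (0.96), 2.90 for *Stfa2l1* (0.82), 2.63 for *Retnlg* (0.90) and 2.38 for *Wfdc17* (0.77), with 2 libraries per genotype. These standard errors are moderated by limma, which draws the variance of each gene toward a common value of the 128 selected genes. Unmoderated, with 2 libraries per genotype, each equals the pooled standard deviation within genotypes. That was 3.20 for *Ngp*, 2.15 for *Ltf*, 1.40 for *Ifitm6*, 0.76 for *Stfa2l1*, 1.18 for *Retnlg* and 0.40 for *Wfdc17*. By the log2 difference *Ngp* and *Ltf* were the first and second of the 128 genes. The median over the 6 was 3.82 and that over all 128 listed genes 2.53. Limma, fitted over the whole table, called 6 of the 6 higher, beside 77.3% of the listed genes, and the selection on this contrast fixed most of both.

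Without library 71 the log2 difference was 2.80 for *Ngp*, 3.53 for *Ltf*, 3.40 for *Ifitm6*, 2.28 for *Stfa2l1*, 1.84 for *Retnlg* and 2.27 for *Wfdc17*. Without library 65 it was 9.20, 7.54, 6.08, 3.52, 3.41 and 2.49. The gap between these settings was 6.40 for *Ngp* and 0.22 for *Wfdc17*. These fits leave 1 genotype with 1 library, so their calls are not read as a result about the 6 genes.

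**Figure D2:**
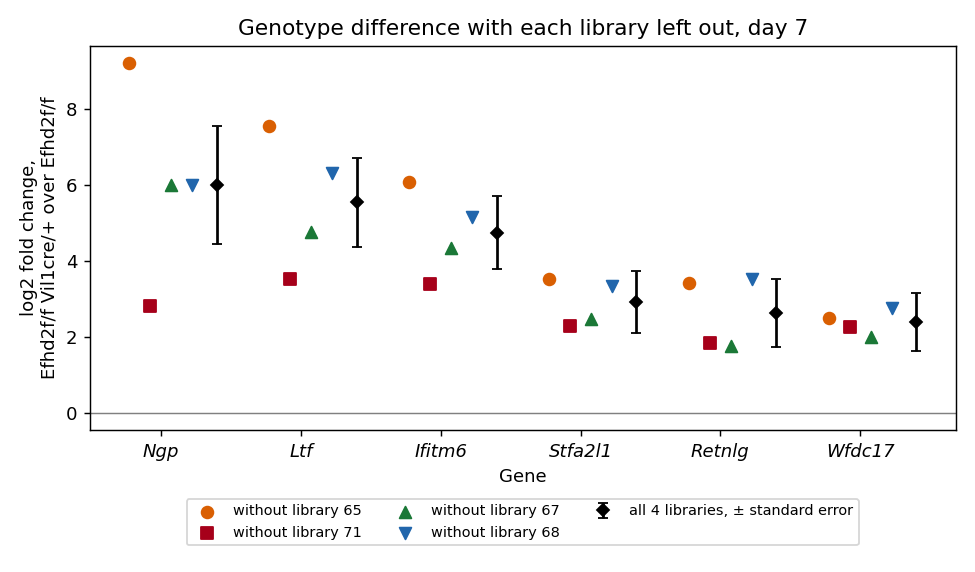
Log2 fold change (Efhd2f/f Vil1cre/+ over Efhd2f/f) of each gene with all 4 libraries, drawn as a diamond with its moderated standard error, and with each library left out. The points of *Ngp* run from 2.80 to 9.20 and those of *Wfdc17* from 1.99 to 2.76.

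Another scaling lowers all differences together. When each library was instead brought to an equal total of its listed values, the median of all listed genes fell by 2.41 on the log2 scale. *Wfdc17* was then at -0.037, *Retnlg* at 0.21 and *Stfa2l1* at 0.54, while *Ifitm6* was at 2.34, *Ltf* at 3.26 and *Ngp* at 3.66. Limma called 0 of the 6 under this scaling, beside 5 of the 128 listed genes called higher. At an unadjusted p under 0.05, 2 of the 6 passed, beside 13 of the 128 that were higher. Because most listed genes had been selected as higher in one genotype, this shift is built into the scaling, and the sign of *Wfdc17* under it shows only that its difference was near the size of the shift. Abundant genes weigh most in the total of the listed values. An example is *Reg3b*, at a mean log2 value of 17.7 in Efhd2f/f Vil1cre/+ and 13.7 in Efhd2f/f IECs. The 6 genes made up 0.734% and 2.96% of that total in libraries 65 and 71 and 0.568% and 0.906% in libraries 67 and 68.

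The 2 libraries of one genotype were then compared. The genes were not chosen on this value directly. Libraries 65 and 71 both enter the genotype difference that chose them, however, so the 2 differences are not independent. Between libraries 71 and 65, the log2 difference was 6.40 for *Ngp*, 4.01 for *Ltf*, 2.69 for *Ifitm6*, 1.57 for *Retnlg*, 1.24 for *Stfa2l1* and 0.22 for *Wfdc17*. By this difference *Ngp* was at place 2, *Ltf* at place 4, *Ifitm6* at place 10 and *Wfdc17* at place 70 of the 128 genes. The median was 2.13 over the 6 genes and 0.32 over all 128. Library 71 was the higher one for 6 of the 6, beside 83 of 128 (64.8%), although *Wfdc17* was at -0.35 when the totals of the listed values were made equal. Of the 6 genes, 3 were among the 15 listed genes with a log2 difference above 2. With 2 libraries of a genotype no test of this difference could be made.

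Between the control libraries 68 and 67 the median difference was smaller. The log2 difference was 1.76 for *Retnlg*, 1.56 for *Ltf*, 0.88 for *Stfa2l1*, 0.81 for *Ifitm6*, 0.77 for *Wfdc17* and 0.01 for *Ngp*. Their median was 0.85, close to the 0.88 of all listed genes, and library 68 was the higher one for 6 of the 6 and for 99 of the 128 (77.3%). *Retnlg* differed about as much between the controls as between libraries 71 and 65.

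**Figure D3:**
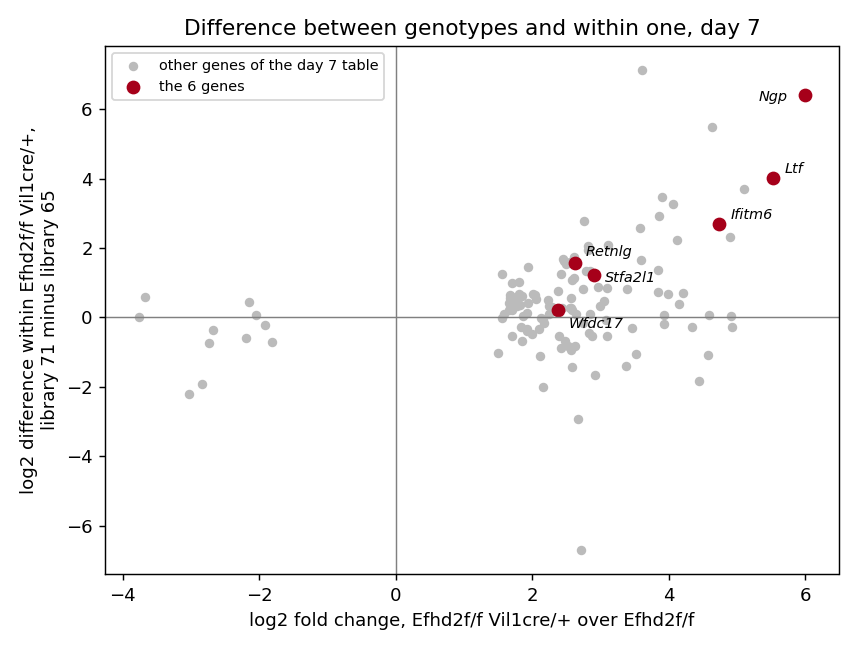
Each point is a gene of the day 7 table, with its log2 fold change between genotypes on the x axis and the log2 difference between Efhd2f/f Vil1cre/+ libraries 71 and 65 on the y axis. *Ngp*, *Ltf* and *Ifitm6* lie at the upper right, at 6.40, 4.01 and 2.69 on the y axis, and *Wfdc17* lies near 0.

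Levels of different genes were compared per kilobase of exon length. *Retnlg* was the highest of the 6 in each library, at 2674 and 7949 normalized counts per kilobase in libraries 65 and 71 and at 405 and 1371 in libraries 67 and 68. In libraries 65, 67 and 68 the order was the same: *Retnlg*, *Wfdc17*, *Ifitm6*, *Stfa2l1*, *Ngp* and *Ltf*. In the controls *Ifitm6* (37.1 and 66.0 per kilobase) and *Stfa2l1* (34.7 and 65.9) differed by less than the spread between libraries, whereas the ranges of the other neighbours in the order did not overlap.

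In library 71 the order was another one. *Ngp* was second with 6311 normalized counts per kilobase, ahead of *Ifitm6* (3433) and *Wfdc17* (1447). *Ngp* made up 31.2% of the summed level per kilobase of the 6 genes in library 71, against 1.55% in library 65, 1.45% in library 67 and 0.539% in library 68. The share of *Wfdc17* was 7.17% in library 71 and between 18.1% and 28.7% in the other 3. Such shares within a library do not depend on how libraries were scaled to each other.

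Set against *S100a9*, which encodes an abundant cytosolic protein of neutrophils and is itself among the selected genes, the 6 genes differed in how far they varied. *S100a9* was at 10154 and 21631 normalized counts in libraries 65 and 71 and at 2125 and 2904 in libraries 67 and 68. *Ngp* amounted to 0.892% of the *S100a9* value in library 65, 35.6% in library 71, 0.569% in library 67 and 0.420% in library 68. *Ltf* amounted to 1.0%, 7.63%, 0.196% and 0.492%, and *Ifitm6* to 4.75%, 14.4%, 1.58% and 2.06%.

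For *Stfa2l1* these percentages were 1.0, 1.12, 0.685 and 0.951, for *Retnlg* 15.6, 21.8, 11.3 and 28.0, and for *Wfdc17* 6.50, 3.57, 4.91 and 6.14. The highest exceeded the lowest by 1.63 times for *Stfa2l1*, 1.82 times for *Wfdc17* and 2.48 times for *Retnlg*, and the genotypes overlapped for *Retnlg* and *Wfdc17*. For *Ngp*, *Ltf* and *Ifitm6* the corresponding ratios were 84.9, 38.9 and 9.09. Relative to *S100a9*, both Efhd2f/f Vil1cre/+ libraries were above both controls for these 3 genes and, narrowly (1.0 against 0.951), for *Stfa2l1*. No share over all listed genes was computed on this scale. The genes had been selected on this contrast, so nothing is read from the count.

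**Figure D4:**
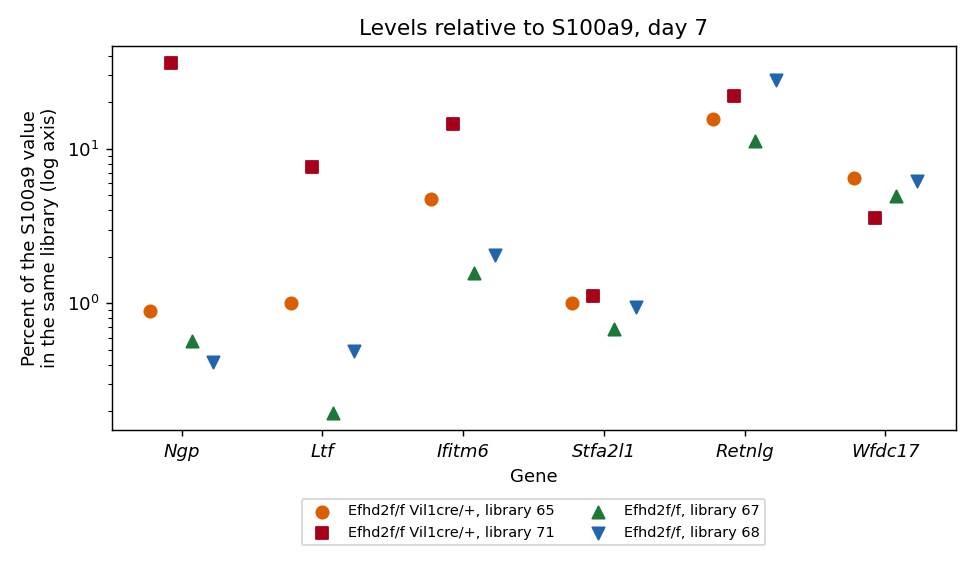
Value of each gene as a percentage of the *S100a9* value of the same library (log axis), 1 point per day 7 library. *Ngp* lies between 0.420 and 0.892 in 3 libraries and at 35.6 in library 71, while the 4 points of *Stfa2l1* lie between 0.685 and 1.12.

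The other genes of neutrophil maturation came from lists. Of 20 genes of secondary and tertiary granules, 8 are in the day 7 table (*Ngp*, *Ltf*, *Camp*, *Lcn2*, *Chil3*, *Mmp8*, *Mmp9* and *Hp*), and limma called 8 higher and 0 lower, with a median log2 fold change of 3.86, beside 77.3% called higher and a median of 2.53 over all listed genes. Of 30 genes of mature neutrophils, 13 are in the table, of which 12 were called higher and 0 lower, with a median of 2.58, close to the 2.53 of all listed genes, and the table had been selected on this contrast. *Trem1*, a receptor that amplifies inflammatory signals, was the gene not called, at 1.70. None of 6 genes of the primary granules, which are filled first (such as *Mpo* and *Elane*), is in either table, and their levels were not analysed here.

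Between libraries 71 and 65, the granule list had a median log2 difference of 2.14 and library 71 was the higher one for 8 of 8, beside a median of 0.32 and 64.8% over all listed genes. *Camp*, the gene of the cathelicidin of secondary granules, was at 4.11 and 227 normalized counts in libraries 65 and 71, and at 0.88 and 0.01 in the controls. Its log2 difference between libraries 71 and 65 was 5.48, which placed it between *Ngp* and *Ltf*. The control values of *Camp* equal those of *BC100530*, lie near the bottom of the scale and are not read as measured levels. *Camp* was also low in library 65, so its difference is uncertain. *Chil3*, a chitinase-like protein of neutrophils and macrophages, was at 1082 and 5053 against 68 and 259, with a difference of 2.22. *Mmp8* (neutrophil collagenase, 2.05), *Lcn2* (lipocalin, 1.67) and *Mmp9* (gelatinase, 1.62) followed, and *Hp* (haptoglobin) stood at 0.31. *Lcn2*, *Chil3*, *Mmp9* and *Hp* are also expressed outside neutrophils.

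In the mature list the median log2 difference between libraries 71 and 65 was 1.09, and 12 of 13 genes were higher in library 71, again beside 0.32 and 64.8%. Those after *Ifitm6* were *S100a8* (1.73), *Retnlg* (1.57), *Lrg1* (1.26), *Stfa2l1* (1.24), *Fpr1* (1.14) and *S100a9* (1.09). *Trem1* (0.58), *Fpr2* (0.50), *Wfdc17* (0.22), *Mrgpra2b* (0.21) and *Clec4e* (0.03) were lower in the order. *Slpi*, an inhibitor of neutrophil elastase that epithelia also make, was at 2710 in library 65 and 1404 in library 71.

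The few listed markers of other cells did not share a direction between libraries 65 and 71. Of 10 erythroid markers 4 are in the table (*Hba-a1*, *Hba-a2*, *Hbb-bs* and *Alas2*), and their summed normalized count was 4139 in library 65 and 3992 in library 71, against 562 and 1344 in the controls. Of 17 macrophage and monocyte markers 3 are in the table (*Nos2*, *Fn1* and *Spp1*), with sums of 8042 and 3819 against 289 and 814, and library 65 had the higher sum. *Nos2* was at 6100 and 1724 in libraries 65 and 71 and *Spp1* at 755 and 97.6, while *Fn1* went the other way (1187 and 1997). *Adgre1*, *Csf1r* and *Cd68* are not among the genes of that table. These 7 listed markers were also called higher in Efhd2f/f Vil1cre/+ IECs, beside 77.3% of all listed genes in a table selected on this contrast. The other markers of both lists were not analysed here. The part of erythroid cells, macrophages and monocytes in the genotype difference of the 6 genes was not tested. The day 7 table holds none of 10 markers of eosinophils, basophils and mast cells and none of 15 of lymphocytes. It also holds none of 10 markers of fibroblasts and endothelium and none of 5 of platelets. Immunoglobulin genes that these lists do not name, such as *Ighg2c* and *Igkv12-46*, are in it.

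**Figure D5:**
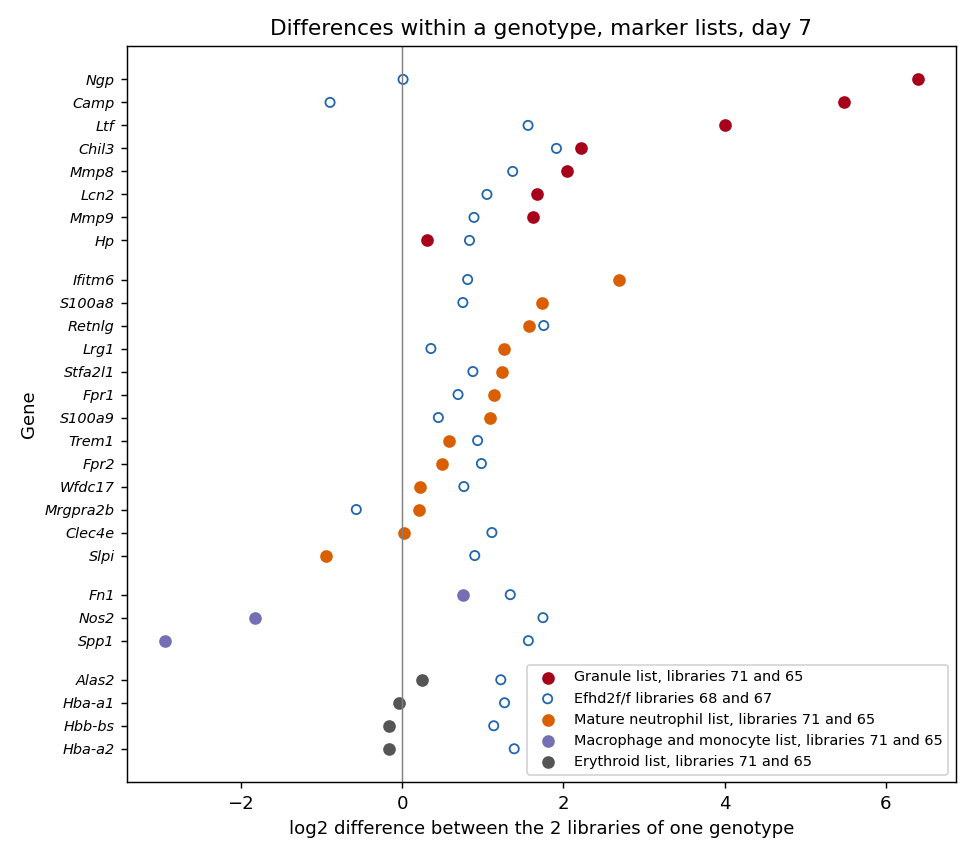
Log2 difference between the 2 libraries of a genotype for the marker genes of the day 7 table, with filled points for Efhd2f/f Vil1cre/+ (library 71 minus 65) and open points for Efhd2f/f (library 68 minus 67). *Ngp*, *Camp* and *Ltf* stand at 6.40, 5.48 and 4.01, whereas the erythroid genes lie between -0.17 and 0.24.

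Among the families of the 6 genes, the stefin A cluster had 4 of 11 genes in the day 7 table. *Gm5483*, 22.3 kb from *Stfa2l1*, was at 106 and 128 normalized counts in libraries 65 and 71 against 12.8 and 27.6. *Stfa2* was at 12.2 and 65.7 and is listed at 0 in both controls, and *BC100530* was at 11.2 and 30.8 against 0.88 and 0.01. These control values lie near the bottom of the scale and are not read as measured levels. Of 14 genes with a WAP core, *Wfdc17*, *Slpi* and *Wfdc21* are in the table, and *Wfdc21* was at 181 and 707 against 31.8 and 78.5. *Ifitm6* was the gene found among 7 Ifitm genes and *Retnlg* the gene found among 4 resistin family genes.

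The genes nearest to each of the 6 in pattern were found by the Euclidean distance between gene-centred log2 values over the 4 libraries, given as a description. The nearest to *Ngp* was *Camp* (distance 1.64, median over all listed genes 5.73), followed by *Ltf* (2.07) and *Reg3d*, an antimicrobial lectin of the epithelium (2.16). *Camp* was near the bottom of the scale in the controls, so its distance is uncertain. The nearest to *Ltf* was *Ifitm6* (1.34), followed by *Reg3a* (1.57) and *Reg3d* (1.66), and the nearest to *Ifitm6* were *Stfa2* (0.65), *Reg3a* (0.89) and *Chil3* (1.04). *Reg3a* was at 102 and 999 normalized counts in libraries 65 and 71 and *Reg3d* at 78.4 and 1031, so library 71 was also high for these 2 genes.

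The other 3 genes had smaller distances, both to their neighbours and to the listed genes as a whole. The median over all listed genes was 1.66 for *Retnlg*, 1.37 for *Stfa2l1* and 0.98 for *Wfdc17*. *Retnlg* was nearest to *Alox5ap* (0.20), which encodes a leukocyte protein needed for leukotriene synthesis, *F13a1* (0.26) and *Mmp8* (0.47). *Stfa2l1* was nearest to *Mmp19* (0.27), the formyl peptide receptor gene *Fpr1* (0.32) and the immunoglobulin gene *Igkv12-46* (0.45), and *Wfdc17* to *Hp* (0.12), *Bst1* (0.21) and *Gm5483* (0.28). Among the 6 themselves the smallest distance was that of *Stfa2l1* and *Retnlg* (0.72) and the largest that of *Ngp* and *Wfdc17* (5.70).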

How the data were processed

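Colonic IECs of 2 genotypes on 2 days were sequenced. The submitters' processing notes name CASAVA 1.8, fastp, HISAT2 2.0.5, featureCounts 1.5.0-p3, DESeq2 1.20.0 and GRCm38 (mm10). Each day has its own table, scaled on its own by the authors, with a deposited signal (a normalized count per gene) for every library. The genotype means, the log2 fold change and the p-values (raw and adjusted) that the authors placed beside these values went unused. Only genes past thresholds of the authors are listed. Values were not whole reads and no reads were recovered, so no count model, interval or floor was used. The step of 1 read differed between genes, and 14 values under 1e-06 in the day 7 table were set to 0.

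Table columns name the genotype and day, but their library numbers match no label, so a column stands for a library of its genotype and day only. Log2(value + 1) was fitted by limma 3.58.1 in R 4.3.3 over the 128 genes of day 7. The fit was tested on simulated data at 2 levels of expression: it recovered most changed genes at the mean levels of the 4 libraries but a minority at the lower levels of the control libraries, the setting tried first, so calls of low genes are less sure. A gene was called at a Benjamini-Hochberg adjusted p under 0.05 with a log2 fold change beyond 1 in either direction. Length is the exon length in the table. Python 3.11.15 with pandas 2.3.3, numpy 2.4.6 and matplotlib 3.10.9 was used for the rest.

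The 6 genes and all lists were chosen with earlier results of these data known. Named are the 6 genes, listed genes of the neutrophil and family lists, the 3 nearest in pattern, and up to 5 of each other list. Alternatives were pseudocounts of 0.1 and 10, a mean of at least 50, equal sums over the listed genes, no variance moderation, and each library left out in turn.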

Additional observations from a re-analysis of the deposited data

How the results depend on the processing

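The number of listed genes called higher by limma, 99 of 128, was 91 and 107 with pseudocounts of 0.1 and 10, 65 of 105 with a mean of at least 50, 5 with equal sums over the listed genes, 3 without variance moderation, and 0 with each library left out in turn (35 to 81 at an unadjusted p under 0.05). Of the 6 genes, 6 were called with either pseudocount and with the minimum mean. Limma called 0 with equal sums (2 at an unadjusted p under 0.05), 0 without variance moderation (1) and 0 with each library left out (1 to 5), a setting that leaves 1 residual degree of freedom and assumes the lone library of a genotype to vary like the other genotype. The median log2 fold change of the 6 was between 2.54 and 4.80 with each library left out and 1.44 with equal sums, where *Wfdc17* was at -0.037, a scaling that by construction lowers all genes of a table selected mostly as higher in one genotype. The median log2 difference between libraries 71 and 65 (2.13) lay between 1.55 (equal sums) and 2.13 under the pseudocounts, the minimum mean and equal sums, and *Wfdc17* was at -0.35 with equal sums. No paired analysis was possible because the library numbers of the tables match no replicate number of the labels. With 2 libraries per genotype, an unknown depth and tables of selected genes, neither detection limits nor genes outside the tables could be examined.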
